A study of Arabidopsis thaliana with 6 samples.

Results

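LHCB1, LHCB2.3 and LHCB3 encode the proteins of the major light-harvesting complex of photosystem II (LHCII). The 7 genes were chosen by their identifiers, as those of these 3 classes that the count table holds, out of 26764 genes in all. They are LHCB1.1 (AT1G29920), LHCB1.2 (AT1G29910), LHCB1.3 (AT1G29930), LHCB1.4 (AT2G34430), LHCB1.5 (AT2G34420), LHCB2.3 (AT3G27690) and LHCB3 (AT5G54270). All 7 passed the filter on low counts. LHCB2.1 and LHCB2.2 were not analysed here. Because near-identical genes share reads, the summed count of the 5 LHCB1 genes and that of all 7 genes are given beside the single genes.

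RNA-seq libraries of *3h1* and wt *Arabidopsis thaliana* seedlings were compared to ask how transcript levels differ without linker histone H1. *3h1* is the triple insertion mutant h1.1-1h1.2-2h1.3-2, with T-DNA alleles in the 3 linker histone genes, and wt is the wild type. Both genotypes are labelled Col-0, but the h1.3 allele was brought in from the L*er* accession, and after backcrossing *3h1* retains some L*er* segments, chiefly around H1.3 on chromosome 2. The paper reports, within its MNase-seq methods, that it located these segments and removed reads overlapping them. Whether that step was applied to the RNA-seq counts is not given in the sources used here. Whether LHCB1.4 and LHCB1.5, on the same chromosome, lie in such a segment was not tested, and allele and accession differences cannot be told apart there. Both genotypes were grown on plates in long days and were 3 weeks old at harvest. There are 3 libraries of *3h1* and 3 of wt, each a biological replicate made from pooled seedlings. Each library is therefore a mixture of organs, in which fewer green cells and less RNA per green cell cannot be told apart.

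LHCII is a very abundant membrane protein complex of the chloroplast thylakoid. It binds chlorophyll a and chlorophyll b, collects light and passes the excitation energy to photosystem II. LHCB1 and LHCB2 proteins form its trimers and are phosphorylated by the kinase STN7 when energy is redistributed between the photosystems, whereas LHCB3 joins trimers with them and lacks that phosphorylation site. The genes lie in the nucleus, are transcribed in light under control of the circadian clock and of GLK transcription factors, and their products are imported into the chloroplast.

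The 5 LHCB1 genes lie in 2 clusters in TAIR10.1, each of them with a single exon. LHCB1.2 (chr1:10472280-10473502, minus strand), LHCB1.1 (chr1:10474656-10475969, minus strand) and LHCB1.3 (chr1:10477885-10479114, plus strand) are neighbours on chromosome 1. LHCB1.5 (chr2:14522524-14523568, minus strand) and LHCB1.4 (chr2:14524607-14525918, plus strand) are neighbours on chromosome 2. LHCB2.3 (chr3:10255906-10257489, plus strand) has 1 intron, and LHCB3 (chr5:22038165-22039568, plus strand) has 2 introns. The coding sequences of the chromosome 1 genes were 95.6% to 96.4% identical to each other, and those of the chromosome 2 pair were 91.4% identical. LHCB2.3 was 69.8% to 70.9% identical to the LHCB1 genes, and LHCB3 was 64.5% to 68.0% identical to the LHCB1 genes.

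How much a read can tell the LHCB1 genes apart is visible in their sequences. Of 804 aligned coding columns, 664 (82.6%) were identical in all 5 genes. The longest run without a difference, coding bases 661 to 695 of LHCB1.1, is shown first because a read inside it fits all 5 genes, and the 60 aligned bases with the most differences follow it. Capitals mark the 15 columns of that stretch in which the genes differ. The stretches are from the RefSeq annotation of TAIR10.1, read 5′ to 3′ on the coding strand.
LHCB1 shared run: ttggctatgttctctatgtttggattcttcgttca
LHCB1.1: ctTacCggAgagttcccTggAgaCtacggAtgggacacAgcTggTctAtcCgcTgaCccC
LHCB1.2: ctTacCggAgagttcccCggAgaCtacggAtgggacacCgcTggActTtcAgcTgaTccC
LHCB1.3: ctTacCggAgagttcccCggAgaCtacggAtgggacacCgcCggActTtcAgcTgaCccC
LHCB1.4: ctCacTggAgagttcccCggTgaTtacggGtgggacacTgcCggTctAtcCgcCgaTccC
LHCB1.5: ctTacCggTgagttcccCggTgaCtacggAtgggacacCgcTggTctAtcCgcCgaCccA

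Exact sharing was confined to short stretches. Of all 100-base windows of the annotated transcripts, 4.44% of those of LHCB1.1, 1.51% of LHCB1.2, 3.27% of LHCB1.3, 3.298% of LHCB1.4 and 4.23% of LHCB1.5 occurred in another of the 7 genes. No such window of LHCB2.3 or LHCB3 did, and at 150 bases no window of any of the 7 genes did. LHCB2.3 also shared no 50-base window with LHCB2.1 or LHCB2.2. The expected counts of LHCB1.1, LHCB1.2, LHCB1.4 and LHCB1.5 were not whole in 6 of 6 libraries, those of LHCB2.3 in 5, and those of LHCB1.3 and LHCB3 in 4, so the division of reads between loci entered the values of every gene. How many reads were divided is not shown by this, and it need not be alike for the 7 genes. For LHCB2.3 the counts lay near whole numbers, such as 203.065 and 316.972 in *3h1* and 382.02 in wt.

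The libraries held 5115676 to 6174881 counts in *3h1* and 4753812 to 5924967 in wt. Chloroplast genes took 52.2% to 54.5% of the count in *3h1* and 55.5% to 60.01% in wt, without overlap between the genotypes. Of the 3 mutated genes, H1.1 (AT1G06760) had 12.5 to 19.4 CPM (a count relative to library size, here scaled by TMM normalization) in *3h1* and 68.3 to 103 CPM in wt. H1.2 (AT2G30620) had 12.8 to 14.2 CPM in *3h1* and 69.0 to 87.2 CPM in wt. Both were lower in *3h1* in edgeR's quasi-likelihood test (Benjamini-Hochberg adjusted p = 0.00163 for H1.1 and 4.05e-05 for H1.2). H1.3 was not analysed here. The summed CPM of 6 leaf markers was 4678 to 5699 in *3h1* and 5523 to 5687 in wt, and 0 of them passed the test in edgeR, DESeq2 or limma voom even without adjustment. Of the 6, 5 had log2 fold changes below 0, with a median of -0.12 over the list, beside 48.8% of the genes tested.

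All 7 genes were lower in *3h1* than in wt, and LHCB2.3 alone passed the adjusted threshold in edgeR's quasi-likelihood test, while the DESeq2 Wald test also passed LHCB1.1 and LHCB3. The LHCB2.3 level fell to 45.1% of wt. The other 6 genes were at 57.2% to 70.7% of wt with unadjusted p values under 0.05 and adjusted p values of 0.200 to 0.416. For each of the 7 genes the highest *3h1* library lay below the lowest wt library in TMM-scaled CPM. This non-overlap towards lower values was found for 7.5% of the 17453 genes tested, an unadjusted p under 0.05 with lower values for 4.17%, and an adjusted p under 0.05 with lower values for 0.0229%. The median log2 fold change of the 7 genes was -0.74, beside 0.01 for all genes tested.

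**Figure D1:**
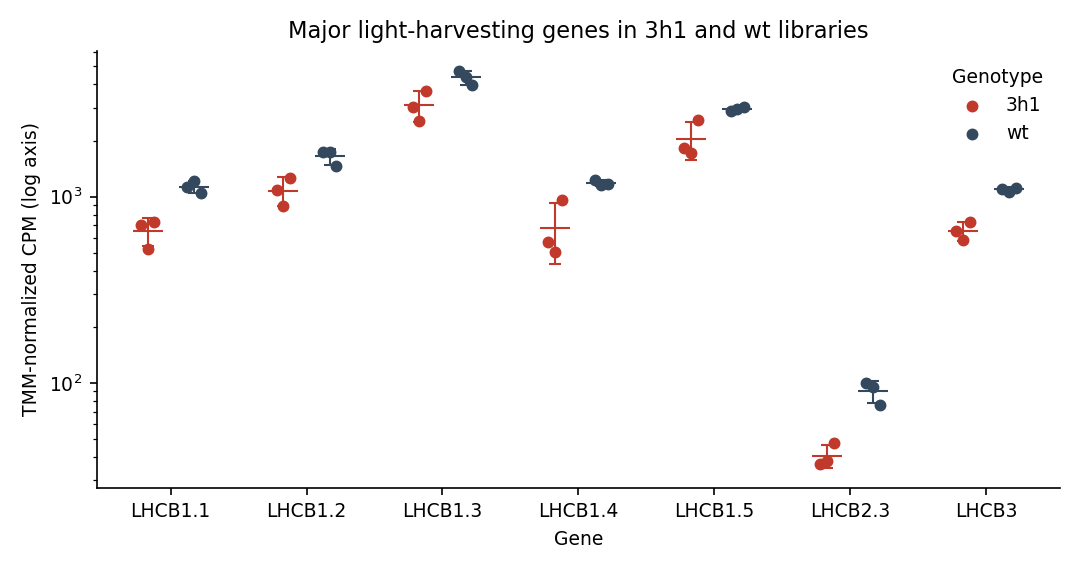
TMM-normalized CPM of the 7 genes (log axis) in 3 *3h1* libraries (red, left) and 3 wt libraries (dark, right), with each point a library, each long dash a group mean and each bar the SD. For each gene all *3h1* points lie below all wt points, and the gap is relatively widest for LHCB2.3, at 36.8 to 47.4 CPM in *3h1* and 76.3 to 99.9 CPM in wt.

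LHCB2.3, an LHCB2 gene whose protein enters the mobile trimers, was the lowest of the 7 per length in both genotypes. It had 36.8, 37.9 and 47.4 CPM in *3h1* replicates 1, 2 and 3, and 99.9, 95.2 and 76.3 CPM in wt replicates 1, 2 and 3. The genotypes did not overlap, although the highest *3h1* library and the lowest wt library are both replicate 3. The log2 fold change was -1.15 with a standard error (SE) of 0.16, which corresponds to 0.451 of the wt level with a 95% interval of 0.352 to 0.576. The gene ranked 7 by p value among all genes tested (edgeR quasi-likelihood test, Benjamini-Hochberg adjusted p = 0.0418). Of the 7, it alone combined a more than 2-fold lower level with an unadjusted p under 0.05, a class that held 0.435% of the genes tested in the lower direction.

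The call of LHCB2.3 lay close to the threshold. It was lost with upper quartile scaling after TMM (edgeR quasi-likelihood test, Benjamini-Hochberg adjusted p = 0.0727), the order of scaling that the study used. The adjusted p of the same test was 0.387 without *3h1* replicate 1, and 0.317, 0.182 and 0.0775 without wt replicates 1, 2 and 3, while the log2 fold change stayed between -1.28 and -1.08 when any single library was left out. The counts behind the gene were 203 to 317 in *3h1* and 376 to 608 in wt. On the opposite strand, AT3G27700 overlaps 595 bases of LHCB2.3, and 22.0% of the 100-base windows of the LHCB2.3 transcript occur in its transcript. That gene had 72 to 185 counts and a log2 fold change of 0.25 (edgeR quasi-likelihood test, Benjamini-Hochberg adjusted p = 0.691), and whether counting used the strand is not given in the sources used here.

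LHCB3, which encodes the LHCII protein found in the trimers bound moderately to photosystem II, had the next smallest p value. Its levels were 652, 582 and 728 CPM in *3h1* replicates 1, 2 and 3, against 1104, 1059 and 1118 CPM in wt replicates 1, 2 and 3. The spread within each genotype was small beside the distance between them, and no library overlapped. The log2 fold change was -0.74 (SE 0.15), or 0.598 of wt with a 95% interval of 0.475 to 0.752 (edgeR quasi-likelihood test, Benjamini-Hochberg adjusted p = 0.200). The gene therefore did not pass after adjustment over all genes, but it did in the DESeq2 Wald test (adjusted p = 0.00787). ATM2 (AT5G54280), a myosin gene that overlaps it by 186 bases on the opposite strand, had 92 to 133 counts, few beside the 3116 to 6721 counts of LHCB3.

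The LHCB1 genes encode the most abundant LHCII protein, and the 3 on chromosome 1 were all lower in *3h1* without passing the adjusted threshold. LHCB1.1 had 705, 525 and 729 CPM in *3h1* replicates 1, 2 and 3, and 1131, 1210 and 1045 CPM in wt replicates 1, 2 and 3. LHCB1.2 had 1083, 885 and 1263 CPM in *3h1* and 1743, 1736 and 1453 CPM in wt, in the same order of replicates. LHCB1.3 had 3010, 2543 and 3700 CPM in *3h1* and 4724, 4403 and 3966 CPM in wt. In each of these genes *3h1* replicate 2 was the lowest library and the genotypes did not overlap, but for LHCB1.3 the highest *3h1* library came within 267 CPM of the lowest wt library. The log2 fold changes were -0.79 (SE 0.17) for LHCB1.1, -0.61 (SE 0.18) for LHCB1.2 and -0.50 (SE 0.19) for LHCB1.3. In edgeR's quasi-likelihood test the Benjamini-Hochberg adjusted p values were 0.217, 0.325 and 0.416 in this order of genes, so none was called. In the DESeq2 Wald test LHCB1.1 was called (adjusted p = 0.0138).

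The pair on chromosome 2 had one *3h1* library apart from the others. LHCB1.4 had 572, 504 and 953 CPM in *3h1* replicates 1, 2 and 3, against 1230, 1152 and 1163 CPM in wt replicates 1, 2 and 3. LHCB1.5 had 1830, 1708 and 2584 CPM in *3h1* and 2864, 2965 and 3024 CPM in wt, in the same order. For both genes *3h1* replicate 3 lay between the other *3h1* libraries and the wt libraries. The log2 fold changes were -0.81 (SE 0.22) for LHCB1.4 and -0.53 (SE 0.19) for LHCB1.5, with Benjamini-Hochberg adjusted p values of 0.311 and 0.398 in edgeR's quasi-likelihood test. Without *3h1* replicate 3, LHCB1.4 had a log2 fold change of -1.13 and passed the test (edgeR, adjusted p = 0.0438). That library was the highest of the *3h1* libraries for all 7 genes, and it also had the largest share of genes with counts that were not whole, 46.3%, against 19.0% to 36.7% in the other libraries. The part of this share in the values was not tested. A non-coding gene, AT2G08665, covers all 1045 bases of LHCB1.5 on the opposite strand and had at most 3.28 counts in any library.

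The sums do not depend on how reads were divided between the 7 genes. The LHCB1 sum was 7201, 6166 and 9229 CPM in *3h1* replicates 1, 2 and 3, and 11692, 11466 and 10652 CPM in wt replicates 1, 2 and 3. The sum of all 7 genes was 7889, 6786 and 10004 CPM in *3h1*, against 12896, 12621 and 11846 CPM in wt. The genotypes did not overlap in either sum. The log2 fold change of the 7-gene sum was -0.60 (SE 0.19), or 0.660 of wt with a 95% interval of 0.492 to 0.887, and that of the LHCB1 sum was -0.58 (SE 0.19). Neither sum passed edgeR's quasi-likelihood test (Benjamini-Hochberg adjusted p = 0.372 for the 7 genes and 0.380 for LHCB1). LHCB1 made up most of the 7-gene sum, so both sums largely describe LHCB1.3 and LHCB1.5.

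**Figure D2:**
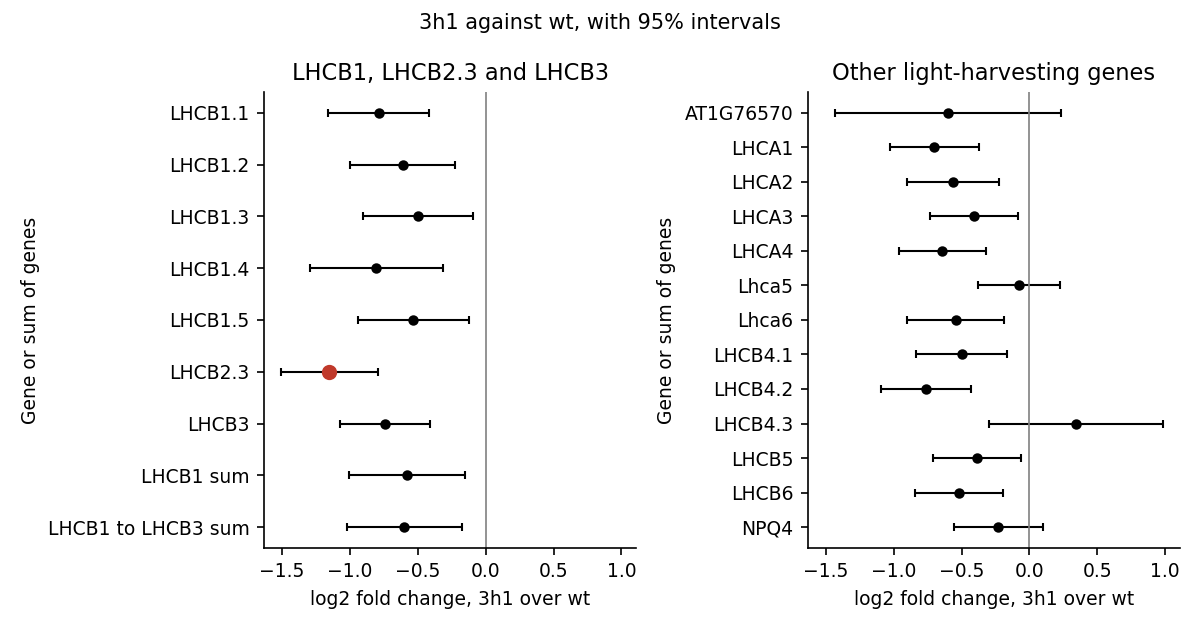
Log2 fold change of *3h1* over wt (horizontal axis) for the 7 genes and their sums (left panel) and for 13 other light-harvesting genes (right panel), with bars for the 95% interval and a large red point for an adjusted p under 0.05. All intervals of the left panel lie below 0 and only LHCB2.3, at -1.15, is marked, while in the right panel 12 of 13 points lie below 0 and none is marked.

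Per length, the order of the genes was nearly the same in both genotypes. Mean RPKM (TMM-scaled CPM divided by exon length in kilobases) was 2508 ± 473 in *3h1* and 3548 ± 309 in wt for LHCB1.3, and 1953 ± 454 in *3h1* and 2824 ± 77.8 in wt for LHCB1.5 (SD, n = 3 each). The ranges of these genes over libraries overlapped in *3h1*, at 2068 to 3008 RPKM for LHCB1.3 and 1635 to 2473 RPKM for LHCB1.5, but not in wt. Within each library of both genotypes, however, LHCB1.3 was above LHCB1.5. LHCB1.2 followed with 881 ± 155 RPKM in *3h1* and 1344 ± 136 RPKM in wt. LHCB3, LHCB1.4 and LHCB1.1 formed a group within their spread, at 497 to 527 RPKM in *3h1* and 859 to 901 RPKM in wt. LHCB2.3 stood apart with 27.8 ± 3.97 RPKM in *3h1* and 61.8 ± 8.51 RPKM in wt. Among 26511 nuclear genes ordered by RPKM, LHCB1.3 ranked 74 in *3h1* and 48 in wt, and LHCB2.3 ranked 1440 in *3h1* and 776 in wt.

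Ratios within a library do not depend on normalization between libraries, and they were used to ask whether the genes differed in response. The LHCB2.3 count was 0.512%, 0.615% and 0.514% of the LHCB1 count in *3h1* replicates 1, 2 and 3, and 0.854%, 0.830% and 0.717% in wt replicates 1, 2 and 3. Its share was thus lower in every *3h1* library than in every wt library, with a log2 difference of -0.55 (two-sided exact permutation test, p = 0.1, the smallest that 3 against 3 libraries allow). Against LHCB3, LHCB2.3 had a log2 difference of -0.40, also without overlap (two-sided exact permutation test, p = 0.1). LHCB3 was 7.89% to 9.44% of the LHCB1 count in *3h1* and 9.24% to 10.5% in wt, which overlap (log2 difference -0.15, two-sided exact permutation test, p = 0.3).

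The division of the LHCB1 count among its 5 genes overlapped between the genotypes for every gene. LHCB1.3 took 41.0% ± 0.874 of it in *3h1* and 38.7% ± 1.602 in wt, and LHCB1.5 took 27.0% ± 1.42 in *3h1* and 26.2% ± 1.98 in wt (SD, n = 3 each). LHCB1.2 took 14.4% ± 0.681 in *3h1* and 14.6% ± 0.809 in wt. LHCB1.4 took 8.82% ± 1.31 in *3h1* and 10.5% ± 0.437 in wt, and LHCB1.1 took 8.74% ± 0.968 in *3h1* and 10.01% ± 0.473 in wt. Two-sided exact permutation tests of these 5 shares gave p values of 0.2 to 0.8, in a design whose smallest p is 0.1.

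**Figure D3:**
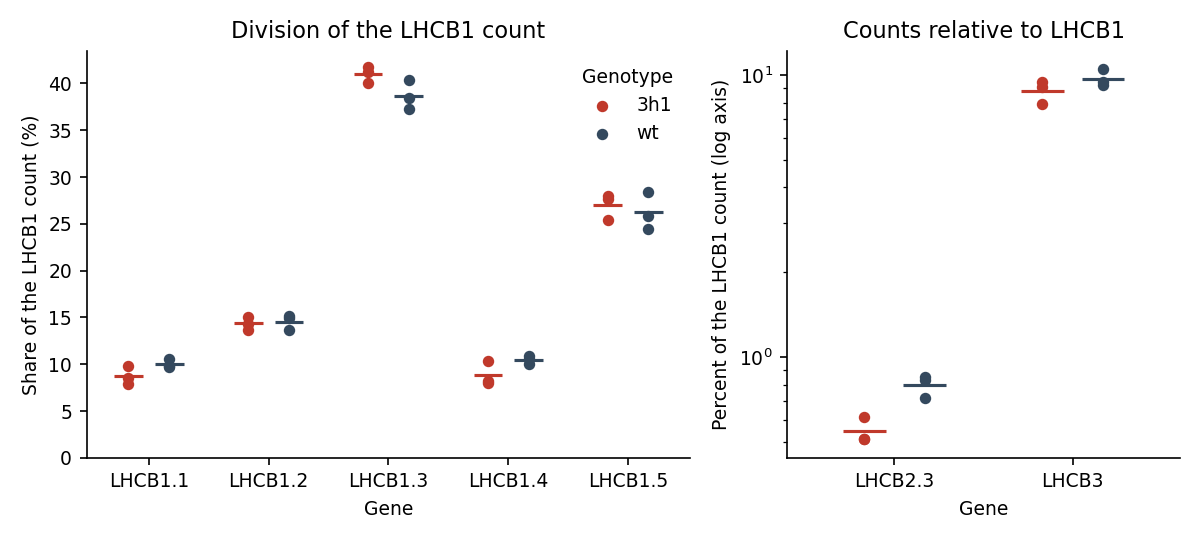
Left, share of the LHCB1 count (%) taken by each LHCB1 gene, and right, LHCB2.3 and LHCB3 counts as a percent of the LHCB1 count (log axis), in *3h1* (red, left) and wt (dark, right), with a point per library and a line at the mean. The shares overlap between genotypes for all 5 LHCB1 genes, and only LHCB2.3 relative to LHCB1 is separated, at 0.512% to 0.615% in *3h1* and 0.717% to 0.854% in wt.

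Of all counts on nuclear genes, the 7 genes took 1.84% (replicate 1), 1.596% (replicate 2) and 2.40% (replicate 3) in *3h1*, and 3.04%, 2.74% and 2.68% in the wt libraries in the same order. Of the total count, chloroplast genes included, they took 0.856%, 0.710% and 1.09% in *3h1* and 1.33%, 1.07% and 1.05% in wt. The genotypes were separate on the nuclear total and overlapped on the whole total, on which 3 of the 7 genes, LHCB1.1, LHCB2.3 and LHCB3, kept their separation. With library totals, 235 of the 17453 genes tested were lower in *3h1* without overlap. With library totals and no TMM, a scaling added after the data were seen, the median log2 fold change of all genes moved to 0.24 and that of LHCB2.3 was -0.92, which is -1.16 relative to this median. The 7-gene sum was then at -0.37, or -0.60 relative to the median. With this scaling 132 genes were lower and 2338 higher at an unadjusted p under 0.05, beside 727 lower and 931 higher with TMM. With nuclear totals, also added after the data were seen, 425 genes were lower and 1167 higher. On this scaling 7 of the 7 genes were separated, beside 803 of the 17149 genes tested that were lower without overlap. The part of the chloroplast share in these differences was not tested.

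**Figure D4:**
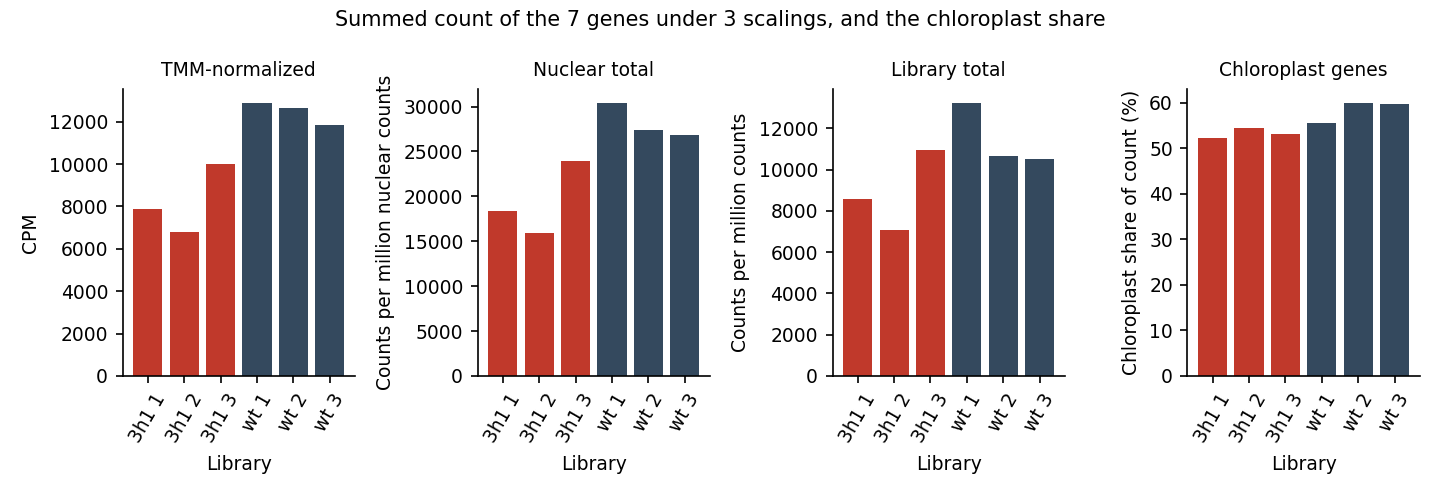
Summed count of the 7 genes in each library under 3 scalings (TMM-normalized CPM, CPM of the nuclear total, CPM of the library total) and the chloroplast share of each library's count (%), with *3h1* in red on the left and wt in dark on the right. The *3h1* bars are below all wt bars under the first and second scaling, and under the third *3h1* replicate 3 exceeds wt replicates 2 and 3.

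The windows of 250 bases before the annotated starts were read because the genes of one protein family lay on the same side of wt. They are shown for LHCB2.3 (chr3:10255656-10255905, plus strand), LHCB3 (chr5:22037915-22038164, plus strand) and LHCB1.1 (chr1:10475970-10476219, minus strand), the genes with the 3 smallest p values. Capitals mark matches, on either strand, to the G-box CACGTG, the CCAAT box CCAAT, the TATA box TATAAA and AAAATCT. The last is a shortened form of a binding motif of the clock factor CCA1, so a match need not be a full site. The sequences are from RefSeq's TAIR10.1, read 5′ to 3′ on the strand of the gene.
LHCB2.3: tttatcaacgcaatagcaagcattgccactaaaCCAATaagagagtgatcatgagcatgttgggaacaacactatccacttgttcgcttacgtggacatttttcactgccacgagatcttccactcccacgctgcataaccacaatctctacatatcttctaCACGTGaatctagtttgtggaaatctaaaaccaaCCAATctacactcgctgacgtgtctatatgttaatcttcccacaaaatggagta
LHCB3: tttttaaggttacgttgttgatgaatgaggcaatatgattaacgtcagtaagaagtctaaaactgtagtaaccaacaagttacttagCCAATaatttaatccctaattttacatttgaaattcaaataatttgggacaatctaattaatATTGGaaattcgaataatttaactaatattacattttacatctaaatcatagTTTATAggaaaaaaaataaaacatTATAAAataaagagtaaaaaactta
LHCB1.1: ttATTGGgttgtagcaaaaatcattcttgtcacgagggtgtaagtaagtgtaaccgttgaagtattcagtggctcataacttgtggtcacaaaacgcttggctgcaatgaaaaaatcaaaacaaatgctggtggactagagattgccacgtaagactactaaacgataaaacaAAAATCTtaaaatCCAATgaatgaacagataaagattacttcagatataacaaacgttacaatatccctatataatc

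CCAAT occurred before 7 of the 7 genes, and in 46.0% of 27443 windows of the same length before annotated protein-coding genes. The G-box occurred before LHCB2.3 only, from 88 to 83 bases before its start, and in 6.49% of all windows. AAAATCT occurred before LHCB1.1, LHCB1.4 and LHCB1.5, and in 16.5% of all windows, and TATAAA before LHCB1.5 and LHCB3, and in 47.3% of all windows. The I-box GATAAG, found in 12.3% of all windows, had no match before the 7 genes. No motif searched overlaps another by its letters in these windows, and a match is only an occurrence of the letters.

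The other light-harvesting genes encode the minor antenna of photosystem II, the antenna of photosystem I and related proteins. Of 13 tested, 12 were lower in *3h1*, 9 of them with an unadjusted p under 0.05, and 0 passed the adjusted threshold in edgeR's quasi-likelihood test, whereas 3 did in the DESeq2 Wald test. Their median log2 fold change was -0.52, and their summed CPM was 7518 to 8322 in *3h1* and 11043 to 11663 in wt. With library totals and no TMM, 11 of 13 were lower and 3 had an unadjusted p under 0.05. The smallest p values belonged to LHCB4.2 (CP29, log2 fold change -0.76), LHCA1 (-0.70), LHCA4 (-0.64) and LHCA2 (-0.56), the last 3 of photosystem I. LHCB4.3 was the one gene above 0, at 0.34 (SE 0.29).

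Genes that act on LHCII proteins after transcription were counted in the same way. Of 5 genes for targeting and assembly, which include the signal recognition particle subunit CPSRP54 and the insertase ALB3, 0 passed edgeR's test with or without adjustment, with a median log2 fold change of -0.08. Of 4 kinase and phosphatase genes 0 passed either, with a median log2 fold change of -0.19. STN7, the LHCII kinase, averaged 34.0 CPM in *3h1* and 38.5 CPM in wt. It was lower without overlap, as were 7.5% of the genes tested. All 4 of these genes and all 5 for targeting and assembly had log2 fold changes below 0, beside 48.8% of the genes tested. DESeq2 and limma voom also called 0 genes of both lists, with or without adjustment. Of 5 genes of the chlorophyll b cycle and of LHCII breakdown, 1 had an unadjusted p under 0.05. It was CH1 (chlorophyllide a oxygenase, which makes chlorophyll b), with a log2 fold change of -0.57 and a Benjamini-Hochberg adjusted p of 0.311 in edgeR's quasi-likelihood test.

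Among 7 regulators of light-harvesting genes tested, 2 were lower with an unadjusted p under 0.05 and 0 passed after adjustment in edgeR's quasi-likelihood test. At an unadjusted p under 0.05, DESeq2 called 0 of the 7 and limma voom 1, and after adjustment both called 0. The 2 genes were PIF4, a phytochrome-interacting factor, with a log2 fold change of -0.38 (SE 0.16), and HY5, a light-signalling bZIP factor, with -0.67 (SE 0.30). GLK2, an activator of antenna genes, averaged 24.5 CPM in *3h1* and 26.6 CPM in wt. GLK1 was not analysed here. All 4 evening clock genes were lower in *3h1*, with a median log2 fold change of -0.11. Of the 2 morning genes tested, PRR7 was lower and CCA1 higher. Among all genes tested, 48.8% had a log2 fold change below 0. Of the 4 morning genes, PRR7 averaged 69.2 CPM in *3h1* and 85.9 CPM in wt (log2 fold change -0.31, unadjusted p under 0.05, without overlap), so the summed CPM of 72.6 to 79.9 in *3h1* and 85.7 to 96.2 in wt was mostly PRR7. CCA1 averaged 3.03 CPM in *3h1* and 2.29 CPM in wt, LHY 1.55 CPM in *3h1* and 1.14 CPM in wt, and PRR9 1.72 CPM in *3h1* and 0.879 CPM in wt, with overlap for CCA1, and with LHY and PRR9 below the filter on low counts. Of the 4 evening genes, 1 was lower with an unadjusted p under 0.05 and without overlap, GI, at a log2 fold change of -0.43, and the list summed to 242 to 309 CPM in *3h1* and 303 to 334 CPM in wt. After adjustment 0 clock genes passed in edgeR, DESeq2 or limma voom, and without it DESeq2 passed 1 evening gene and 0 morning genes. The hour of harvest is not given in the sources used here, and the part of the clock genes in the values of the 7 genes was not tested.

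Markers of other organs stood beside these values as follows. The summed CPM of 6 root markers was 175 to 241 in *3h1* and 164 to 217 in wt, that of 4 vasculature markers 84.7 to 98.8 in *3h1* and 86.0 to 115 in wt, and that of 3 senescence and dark markers 35.0 to 81.5 in *3h1* and 47.8 to 82.0 in wt, and 0 of their tested genes passed without adjustment in edgeR, DESeq2 or limma voom. The 4 flower markers summed to 4.48 to 9.41 CPM in *3h1* and 2.15 to 2.74 CPM in wt without overlap, with SEP3, the 1 gene tested, at a log2 fold change of 1.66 (edgeR, adjusted p = 0.311). SEP3 had an unadjusted p under 0.05 in edgeR, DESeq2 and limma voom. The 4 seed storage markers summed to 1.51 to 8.05 CPM in *3h1* and 1.97 to 2.81 CPM in wt, and 0 of them passed the filter on low counts. No marker of these lists that the table holds was at 0 in all libraries, and the part of organ composition in the values of the 7 genes was not tested.

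Genes whose pattern over the 6 libraries was most like the 7-gene sum were sought among 6691 nuclear genes with a mean of at least 10 CPM. The highest Pearson correlations of log2(CPM + 1) were 0.993 for AT3G26100, 0.987 for AT1G51520, 0.987 for PSAG (AT1G55670, a photosystem I subunit), 0.985 for IRX6 (AT5G15630) and 0.983 for AT4G16870. The 7 genes themselves correlated with their sum at 0.943, for LHCB2.3, to 0.988, for LHCB1.3. The 6 points are 3 libraries of each genotype, so the difference between genotypes enters these correlations, which describe the libraries only.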

How the data were processed

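RNA was isolated from wt and *3h1* seedlings, depleted of ribosomal RNA and sequenced on an Ion Proton instrument. The authors discarded reads from leftover ribosomal RNA and spike-ins, aligned those remaining to TAIR10 with TMAP, with BBMap for unaligned reads, and quantified ARAPORT11 genes in Partek Flow. The deposited expected counts are estimates per gene before normalization, in which multi-mapping reads were divided between loci by expectation maximization, so levels of near-identical genes depend on that division. A second deposited table, with ratios, p values, FDR and least-squares means of the authors' own comparison, was not used.

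Expected counts were rounded, filtered with filterByExpr and scaled by TMM. The study followed TMM by the upper quartile method, which was run here as an alternative only. The genotypes were then compared by the quasi-likelihood test of edgeR 4.0.16 (R 4.3.3), with genotype as the only term and Benjamini-Hochberg adjustment over the 17453 genes tested. The procedure was tested on simulated counts. For the 2 sums, the rows of the genes were replaced by their sum and the fit repeated. Ratios and shares within libraries were compared by exact permutation over 20 splits. DESeq2 1.42.0 and limma 3.58.1 voom were alternatives, as were other scalings and filters, fits without single libraries and a replicate block. Sequences, lengths and coordinates are those of RefSeq's TAIR10.1, matched by identifier, with coding sequences aligned by MAFFT 7.526. RPKM used the exon length of this annotation.

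Named genes are the 7 genes, the H1 genes, from each list of light-harvesting, targeting, kinase, regulator and chlorophyll b genes those with an adjusted p under 0.05 or at most 4 with the smallest unadjusted p under 0.05, and the 5 genes most like the sum. LHCB4.3, STN7, GLK2 and the marker and clock genes, and the genes named only as examples of a list or as overlapping genes, fall outside this rule and were named after their values were seen. The 7 genes and the lists were chosen with earlier results of these data known.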

Additional observations from a re-analysis of the deposited data

How the results depend on the processing

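The log2 fold changes of the 7 genes and both sums were negative in all 17 alternatives run for each. The unadjusted p stayed under 0.05 in 17 of them for LHCB1.1, LHCB1.4, LHCB2.3 and LHCB3, in 16 for LHCB1.2 and both sums, in 15 for LHCB1.5 and in 14 for LHCB1.3. With library totals it was 0.0761 for LHCB1.2 (log2 fold change -0.38), 0.207 for LHCB1.3 (-0.27), 0.162 for LHCB1.5 (-0.30), 0.115 for the LHCB1 sum (-0.35) and 0.0976 for the 7-gene sum (-0.37), in edgeR's quasi-likelihood test. LHCB2.3 passed the adjusted threshold in 8 of them and ranged from -1.28 to -0.92, with edgeR, limma or DESeq2 adjusted p values of 7.07e-05 to 0.387. It did not pass with the upper quartile after TMM (-1.12, adjusted p = 0.0727), with at least 10 counts in every library (-1.11, 0.0949), with library totals (-0.92, 0.0937) or with nuclear totals (-1.08, 0.0651), the last 2 chosen after seeing the data, and single libraries left out gave -1.28 to -1.08. DESeq2's Wald test called LHCB1.1 (-0.80) and LHCB3 (-0.76), and single libraries left out gave -1.13 to -0.66 for LHCB1.4. The cause of these differences was not tested.

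Both genotypes carry the same replicate numbers, and deviations of same-numbered libraries correlated at -0.06, -0.16 and -0.11. Libraries with different numbers correlated at 0.05 on average. These values show no shared deviation of same-numbered libraries, but with 3 libraries per genotype they cannot exclude that the libraries were paired. In the paper's own correlations of log2 RPKM, some *3h1* libraries were closer to a wt library than the wt libraries were to each other. What the libraries share beyond genotype was not tested. With the replicate block LHCB2.3 kept its log2 fold change of -1.15 but not its call (edgeR, adjusted p = 0.335), and 2 genes were lower at the adjusted threshold.

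Counts of lower genes moved more. At the adjusted threshold 4 genes were lower, against 17 with DESeq2, 2 with library totals and 2 to 19 without single libraries. At an unadjusted p under 0.05 there were 727, against 416 with DESeq2, 132 with library totals and 425 with nuclear totals. With a fold change over 2 besides there were 76, against 150 with no filter, 45 with at least 10 counts, 38 with library totals and 94 to 133 without single libraries. Without overlap there were 1309, against 235 with library totals, 803 with nuclear totals and 1933 to 2871 without single libraries, where fewer libraries are compared. Adding LHCB2.1 and LHCB2.2 to the sum was not run, as both were not analysed here. With 3 libraries per genotype, permutation cannot reach a p below 0.1.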
